A study of Mus musculus with 6 samples.

Results

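The receptors for interleukin (IL)-4, IL-13 and IL-15 were examined through 6 genes in mouse skin fibroblasts (MSFs): *Il13ra1*, *Il13ra2*, *Il4ra*, *Il2rg* and *Il15ra*, which encode receptor chains, and *Il15*, which encodes a ligand. They were chosen on measured values of these same libraries, because *Il13ra2* and *Il15ra* were higher after treatment, so their differences are given as a description without a test. They are 6 of the 22162 genes in the table, and 5 of the 6 passed the filter on low values that left 11877 genes for testing. *Il15* did not pass, and *Il13ra2* passed only through its 3 treated libraries.

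MSFs came from the dorsal skin of FVB/N FASST mice, in which a tamoxifen (TAM)-inducible Cre recombinase driven by the pro-alpha 2(I) collagen promoter opens a p27Kip1 cassette, followed by IRES-GFP, at the ROSA26 locus. Both groups carry these alleles and were grown at 3% oxygen. The 3 senescent libraries were made after 10 µM TAM for 48 h (TAM) and the 3 non-senescent libraries after the ethanol vehicle (EtOH), so TAM itself and the p27Kip1 allele it activates cannot be told apart here. According to the study's methods the MSF line was derived from the skin of a single animal, a female. Each treatment has 3 libraries, and the sources do not say whether they came from separate treatments. Thus n = 3 counts libraries of a line and p-values measure the spread between these libraries, which may be technical.

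Poly(A) RNA was measured as normalized counts per gene, with sums between 14952367 and 17314953 per library. The smallest values above 0 lay between 0.36 and 0.89 normalized counts, and these mark the resolution for the rarest transcripts. All 10 fibroblast markers passed the filter, with *Col1a1* at 265664 normalized counts or more in every library, and their summed level was 1626202 to 1785072 in EtOH and 720169 to 1152175 in TAM. The collagens *Col1a1*, *Col1a2* and *Col3a1* weighed most in this sum, with EtOH means of 512956, 371706 and 522846. Of the 10 markers, 6 were lower in all 3 TAM libraries, 1 was higher and 3 overlapped. Over all genes tested 11.4% were lower and 9.19% higher in that way. *Thy1* was the higher one (log2 difference 1.36), and *Pdgfrb* (0.09) and *Vim* (−0.16) overlapped. None was called by limma at an adjusted p under 0.05. The 20 leukocyte markers summed to 185 to 474 in EtOH and 286 to 487 in TAM, and *Tyrobp*, *Emr1*, *Cd3e* and *Cd3g* were at 0 in all 6 libraries. The 12 keratinocyte markers summed to 81.1 to 96.6 and 77.2 to 139, and the 10 endothelial markers to 160 to 282 and 76.4 to 91.2. *Kdr*, of the endothelial list, was at 204.68, 68.69 and 116.28 in EtOH and 4.84, 7.53 and 14.0 in TAM. It was called lower with the replicate number as a block in the model (limma adjusted p = 0.0488) and not without it (0.0608). *Kdr* passed the filter only through its EtOH libraries, so no support is drawn from this call. *Cdkn1b*, the gene for p27Kip1, was at 1427, 3074 and 1853 normalized counts in EtOH and 1699, 1520 and 1630 in TAM (log2 difference −0.32 ± 0.28 SE, limma adjusted p = 0.677), and whether transcripts of the ROSA26 cassette were counted on it is not known.

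IL-4 binds IL-4Rα, which then pairs either with the common gamma chain, encoded by *Il2rg*, or with IL-13Rα1. IL-13 binds IL-13Rα1 together with IL-4Rα, and both complexes act through JAK kinases and STAT6, whereas IL-13Rα2 binds IL-13 tightly, has a short cytoplasmic tail and is best known as a decoy. IL-15 is usually held by IL-15Rα and presented to cells that carry the IL-2/IL-15 receptor beta chain and the common gamma chain. Fibroblasts respond to IL-4 and IL-13 through IL-4Rα and IL-13Rα1 and are known for making eotaxin and matrix proteins in that response.

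The stretches before the starts of *Il13ra2* and *Il15ra* are shown because these genes had the largest differences of the 6. Of the 6 genes, 5 had an entry in the RefSeq promoter table (GRCm38.p6), which gives 250 bases before each start, and *Il15* had none. Both strands were searched for TTCNNNNGAA, the spacing preferred by STAT6, for TTCNNNGAA, the spacing of other STAT factors, for GAAANNGAAA, the core bound by interferon regulatory factors, and for TGANTCA, the AP-1 motif. The capitals mark the only matches, which were AP-1 matches, and the sequences run 5′ to 3′ on the strand of the gene. The first is chrX:147429193-147429442 (minus strand) and the second, before 1 of 2 listed *Il15ra* starts, is chr2:11705462-11705711 (plus strand).
Il13ra2: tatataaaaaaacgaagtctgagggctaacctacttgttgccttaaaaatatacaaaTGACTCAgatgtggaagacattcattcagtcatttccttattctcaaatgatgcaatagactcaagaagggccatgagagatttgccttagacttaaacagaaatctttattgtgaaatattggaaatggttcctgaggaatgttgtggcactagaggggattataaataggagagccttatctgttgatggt
Il15ra: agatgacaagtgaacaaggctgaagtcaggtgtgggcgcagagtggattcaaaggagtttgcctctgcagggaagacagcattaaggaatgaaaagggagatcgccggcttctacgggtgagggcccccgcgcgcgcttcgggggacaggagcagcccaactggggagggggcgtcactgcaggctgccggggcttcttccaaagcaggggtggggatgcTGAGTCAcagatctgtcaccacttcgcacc
The *Il13ra2* match TGACTCA begins at −193 and the *Il15ra* match TGAGTCA at −30, counted from the start. The AP-1 motif was found in 6.75% of 32851 promoters, TTCNNNNGAA in 5.85%, TTCNNNGAA in 7.02% and GAAANNGAAA in 2.98%. None of the 4 motifs was found in these 250 bases of *Il13ra1*, *Il4ra*, *Il2rg* or the other *Il15ra* start. The *Il13ra2* stretch had 36.0% GC and the *Il15ra* stretch 60.4%, beside a median of 52.4% over all promoters. A match is a description of the letters, and binding was not measured.

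*Il13ra2* had the largest difference of the 6 genes, moving from near the limit of detection to a low but clear level. It was at 5.16, 8.52 and 1.62 normalized counts in EtOH and 120.97, 90.47 and 29.89 in TAM. The lowest TAM library was above the highest EtOH library, and replicate 3 was the lowest of both groups. The means were 5.10 ± 3.45 and 80.4 ± 46.4 (SD, n = 3), a ratio of 15.8. On the log2(value + 1) scale the difference was 3.71 ± 0.81 (SE), and it was 4.31, 3.26 and 3.56 between libraries with the same replicate number. This scale understates changes of low genes, and with 10 in place of 1 as the added constant the difference was 2.44. The gene is on the minus strand at X:143818019-143863735 in mm9 (ENSMUSG00000031289).

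*Il15ra*, which encodes the IL-15-binding chain, was at 91.19, 67.66 and 27.29 normalized counts in EtOH and 614.04, 184.31 and 177.59 in TAM. All 3 TAM libraries were above all 3 EtOH libraries, and TAM replicate 1 stood well above the other two. The means were 62.0 ± 32.3 and 325 ± 250 (SD, n = 3), a ratio of 5.24 and a log2 difference of 2.28 ± 0.78 (SE). Between same-numbered libraries the log2 difference was 2.74, 1.43 and 2.66, and without TAM replicate 1 it was 1.69. *Il15ra* is on the plus strand at 2:11626914-11655613 in mm9 (ENSMUSG00000023206).

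*Il15*, the ligand of that chain, stayed at a few normalized counts in both groups. It was at 9.31, 14.33 and 16.03 normalized counts in EtOH and 5.74, 8.36 and 19.08 in TAM. The groups overlapped, with the lowest and the highest value both in TAM, and the log2 difference was −0.36 ± 0.52 (SE). The study lists *Il15* among genes contributing to the enrichment of JAK-STAT pathway factors in senescent MSFs. That listing places *Il15* among raised genes, whereas the mean difference given here is negative with overlap. The study's ranking used fold changes with a floor of 1 c.p.m., so the listing and this difference are not on the same scale. At 1 c.p.m. as reckoned here (16.2 normalized counts), only TAM replicate 3 lay above such a floor. The reason for the unlike directions was not tested. The gene is on the minus strand at 8:84855536-84927121 in mm9 (ENSMUSG00000031712).

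*Il13ra1*, the signalling receptor chain for IL-13, lay lower in every TAM library. It was at 492.65, 1145.8 and 655.55 normalized counts in EtOH and 396.61, 439.02 and 426.18 in TAM. The EtOH libraries were spread over more than a doubling, whereas the TAM libraries were close together. The means were 765 ± 340 and 421 ± 21.7 (SD, n = 3), a ratio of 0.550 and a log2 difference of −0.77 ± 0.36 (SE). Without EtOH replicate 2 the log2 difference was −0.43. *Il13ra1* is on the plus strand at X:33652105-33711254 in mm9 (ENSMUSG00000017057).

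*Il4ra*, the chain shared by the IL-4 and IL-13 receptors, was the most abundant of the 6. It was at 5203, 2955 and 3144 normalized counts in EtOH and 4545, 7278 and 5680 in TAM. The groups overlapped because EtOH replicate 1 lay above TAM replicate 1. The means were 3767 ± 1247 and 5834 ± 1373 (SD, n = 3), with a log2 difference of 0.65 ± 0.32 (SE), and between same-numbered libraries it was −0.19, 1.30 and 0.85. *Il4ra* is on the plus strand at 7:132695785-132722986 in mm9 (ENSMUSG00000030748).

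*Il2rg*, the common gamma chain, was low in these cells. It was at 24.15, 26.7 and 11.38 normalized counts in EtOH and 27.5, 49.42 and 25.84 in TAM. The groups overlapped narrowly, since TAM replicate 3 lay just under EtOH replicate 2. The log2 difference was 0.72 ± 0.47 (SE), and it was 0.36 without EtOH replicate 3 and 0.43 without TAM replicate 2. *Il2rg* is on the minus strand at X:98459717-98463594 in mm9 (ENSMUSG00000031304), and it shares 728 exon bases with *Gm20489* on the same strand, so its value is uncertain to that extent. *Il2rg* is mainly known from lymphocytes, and the pan-leukocyte gene *Ptprc* was at 0.74, 0 and 0 in EtOH and 1.53, 5.01 and 0 in TAM. *Lyz2*, a myeloid marker, was at 46.77, 35.25 and 62.87 in EtOH and 103.07, 143.26 and 159.48 in TAM (log2 difference 1.48, limma adjusted p = 0.141). The other leukocyte markers that passed the filter were *Csf1r*, at 75.68, 73.41 and 74.31 in EtOH and 113.12, 226.21 and 90.58 in TAM (log2 difference 0.82, adjusted p = 0.388), and *Cd68*, at 52.13, 352.25 and 97.38 in EtOH and 49.55, 90.47 and 115.91 in TAM (log2 difference −0.59, adjusted p = 0.758). The part of these markers in the *Il2rg* values was not tested.

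**Figure D1:**
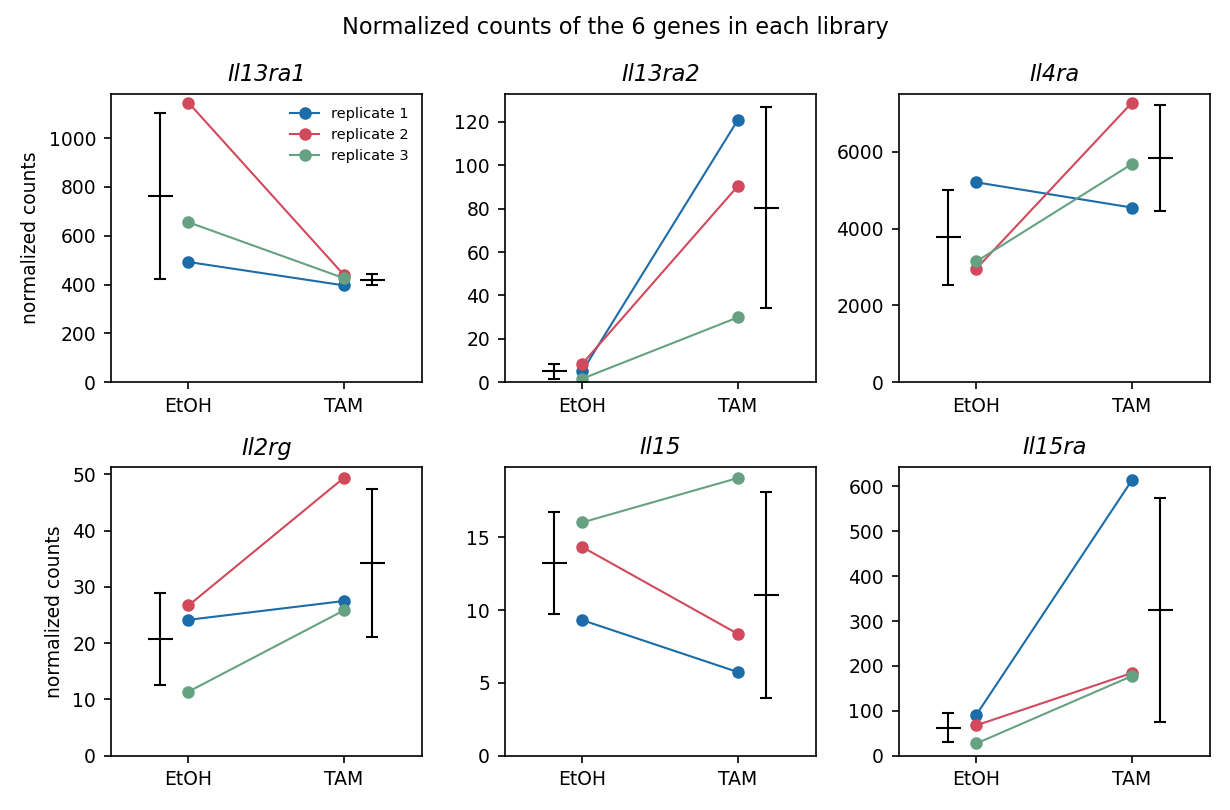
Normalized counts of the 6 genes (vertical axes, each from 0) in the EtOH and TAM libraries, with lines joining libraries of the same replicate number and black bars giving the mean ± SD of each group (n = 3). All 3 TAM points lie above all EtOH points for *Il13ra2* and *Il15ra* and below them for *Il13ra1*, and the groups overlap for *Il4ra*, *Il2rg* and *Il15*.

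Thus 2 of the 6 genes were higher in all 3 TAM libraries, 1 was lower in all 3 and 3 overlapped. Among the 11877 genes tested, all 3 TAM values lay above the EtOH values for 9.19% and below them for 11.4%. Without the replicate number in the model, limma called 20 genes higher in TAM (0.168%) and 9 lower (0.0758%) at a Benjamini-Hochberg adjusted p under 0.05. With the replicate number as a block it called 119 higher (1.00%) and 73 lower (0.615%). Nothing is read from the members' counts against these shares, because the same comparison chose them. In bulk RNA, fewer cells that express a gene and less RNA of it per cell cannot be told apart.

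To compare genes with each other, normalized counts were divided by the kilobases of annotated exon. For 2 genes the deposited locus differs from the annotated gene. That of *Il2rg* is wider, at X:98456743-98464362, and that of *Il4ra* ends earlier, at 7:132715467. The levels per kb of *Il2rg* and *Il4ra*, and the ratios made from them, are uncertain to that extent. In EtOH the mean levels per kb were 735 for *Il4ra* (range 577 to 1015), 206 for *Il13ra1* (133 to 308), 15.1 for *Il15ra* (6.63 to 22.1), 8.69 for *Il2rg* (4.77 to 11.2), 6.93 for *Il15* (4.88 to 8.40) and 2.24 for *Il13ra2* (0.710 to 3.74). In this order *Il2rg* overlapped both *Il15ra* and *Il15*, and the other neighbours did not overlap. In TAM the mean levels per kb were 1138 for *Il4ra* (887 to 1420), 113 for *Il13ra1* (107 to 118), 79.0 for *Il15ra* (43.1 to 149), 35.3 for *Il13ra2* (13.1 to 53.0), 14.4 for *Il2rg* (10.8 to 20.7) and 5.80 for *Il15* (3.01 to 10.0). *Il4ra* stood apart from *Il13ra1*, and *Il2rg* narrowly apart from *Il15*, while the neighbours between them overlapped. *Il13ra2* was thus the lowest of the 6 in EtOH and the fourth in TAM. Among the genes with a mean above 0, its level per kb was at the 20.8th percentile in EtOH and the 44.7th in TAM, and that of *Il4ra* at the 93.5th and the 96.6th.

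**Figure D2:**
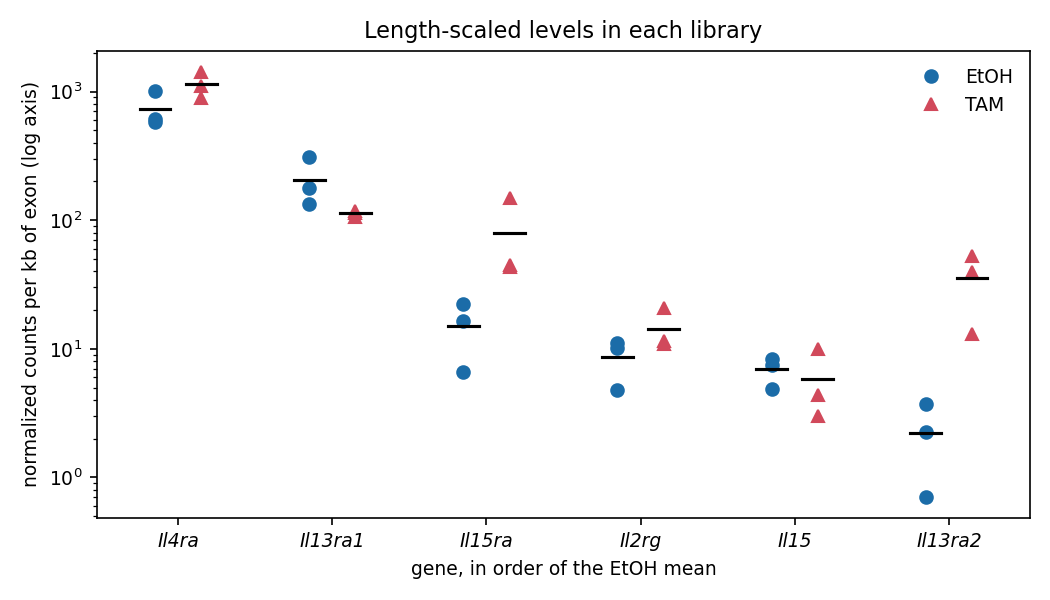
Normalized counts per kb of exon (vertical log axis) of the 6 genes in each EtOH library (circles) and TAM library (triangles), in the order of the EtOH mean, with bars for group means. *Il4ra* is the highest in both groups, and *Il13ra2* moves from the lowest place, at a mean of 2.24, to a mean of 35.3.

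Ratios within a library do not depend on how the libraries were scaled. The level per kb of *Il13ra2* relative to *Il13ra1* was 0.0171, 0.0121 and 0.00402 in EtOH and 0.497, 0.336 and 0.114 in TAM, so that the decoy chain remained below the signalling chain in all 6 libraries while the gap narrowed in TAM. *Il4ra* relative to *Il13ra1* was 7.66, 1.87 and 3.48 in EtOH and 8.31, 12.02 and 9.66 in TAM, without overlap but with TAM replicate 1 close to EtOH replicate 1. *Il4ra* relative to *Il2rg* was between 51.6 and 129 in EtOH and between 68.6 and 102 in TAM. *Il15ra* relative to its ligand *Il15* was 4.54, 2.19 and 0.789 in EtOH and 49.6, 10.2 and 4.31 in TAM, and the groups overlapped because TAM replicate 3 lay under EtOH replicate 1. The ratios are made from the values that chose the genes and are likewise a description.

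**Figure D3:**
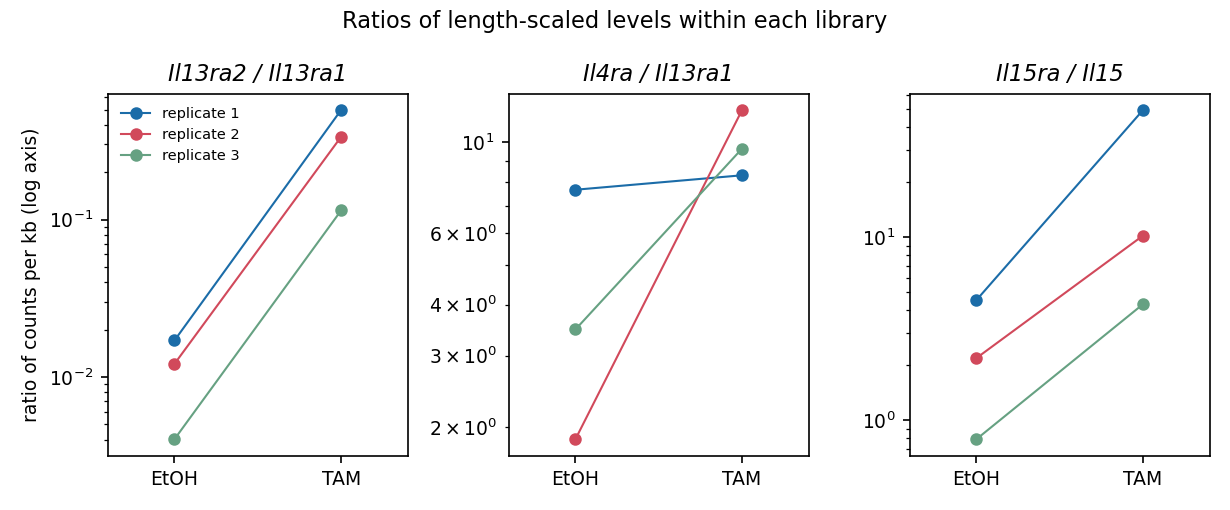
Ratios of normalized counts per kb between gene pairs (vertical log axes) in each library, with lines joining libraries of the same replicate number. *Il13ra2* over *Il13ra1* moves from at most 0.0171 in EtOH to at least 0.114 in TAM, and *Il15ra* over *Il15* is higher in TAM within each replicate number.

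Across the 6 libraries the pattern of *Il13ra2* was most like those of *Spsb1* (Pearson r = 0.9937 on the log2(value + 1) scale), *Slc9a3r1* (0.9926) and the acute-phase gene *Saa3* (0.9921). That of *Il15ra* was most like *Pappa2* (0.9946), *Zdhhc14* (0.9914) and the laminin gene *Lama5* (0.9906). The genes most like *Il13ra1* were *Sun1* (0.9985), *Khsrp* (0.9959) and *Rsbn1l* (0.9953), and those most like *Il4ra* were *Slc35b2* (0.999), *Ssu72* (0.9968) and *Cpn2* (0.9889). *Il2rg* was most like *Pla2g4a* (0.9984), *Tmem51* (0.9928) and *Spry4* (0.9911). *Il13ra2* and *Il15ra* had an r of 0.926 with each other, and *Il13ra1* had −0.797 with *Il4ra*. All these values rest on 6 points that share the 2 groups, and with 11877 genes to choose from the highest of them are near 1 by selection.

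The nearest listed genes on the chromosome were looked at after the values of the 6 genes had been seen. *Fbxo18* begins 8587 bases after *Il15ra* and had a log2 difference of 0.23 (limma adjusted p = 0.673). *Il2ra*, the IL-2 receptor alpha chain, ends 12096 bases before *Il15ra* and was at 9.17, 15.24 and 13.21 normalized counts in EtOH and 7.15, 5.85 and 12.76 in TAM, below the filter and with overlap. *Lrch2*, 41183 bases after *Il13ra2*, had a log2 difference of 0.20 (adjusted p = 0.767). Neither of these 2 genes nor *Il2ra* had the separation between groups seen for *Il13ra2* and *Il15ra*. *Dock11*, 35548 bases before *Il13ra1*, was at 789.2, 937.75 and 1188 in EtOH and 602.9, 463.32 and 439.79 in TAM, lower in all 3 TAM libraries (log2 difference −0.95, adjusted p = 0.160). *Zcchc12*, 24645 bases after *Il13ra1*, was also lower in all 3 TAM libraries but below the filter. It was at 7.88, 15.36 and 5.28 in EtOH and 2.01, 1.66 and 0.46 in TAM. *Htr2c*, before *Il13ra2*, and the nearest genes of *Il4ra*, *Il2rg* and *Il15* overlapped between groups.

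The ligand genes *Il13*, *Il2* and *Il7*, whose receptors include chains of the group studied here, were low in MSFs. *Il13* was at 0, 0 and 0.88 normalized counts in EtOH and 1.55, 0.82 and 1.51 in TAM, and *Il2* was at or under 0.79 in every library, within the range of the smallest values above 0. *Il7*, a ligand of another common gamma chain receptor, was at 0.63, 1.88 and 7.21 in EtOH and 2.11, 13.39 and 2.79 in TAM, and *Il4* was not analysed here. Of 11 listed ligands 10 were in the table, and only *Il33*, an alarmin that induces type 2 cytokines, passed the filter. Its protein acts on another receptor, encoded by *Il1rl1*. *Il33* was at 1190, 735 and 605 in EtOH and 640, 559 and 1346 in TAM (log2 difference −0.04, limma adjusted p = 0.976).

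The other chains of common gamma chain and type 2 cytokine receptors were also mostly low, and 2 of 11 passed the filter. *Il2rb*, the beta chain through which IL-15 signals, was at 8.44, 20.07 and 4.30 in EtOH and 12.58, 15.07 and 39.23 in TAM, and *Il7r* was at 1.51, 2.87 and 5.46 in EtOH and 0.62, 0 and 1.35 in TAM. Neither was tested. *Il1rl1*, the receptor of IL-33 with a known soluble form, was at 3139, 3708 and 564 in EtOH and 6895, 14409 and 6404 in TAM. Its TAM libraries were all above its EtOH libraries, but the difference did not pass the test (log2 difference 2.20, adjusted p = 0.268, and 0.108 with the block). The other tested chain, *Crlf2* of the thymic stromal lymphopoietin receptor, had a log2 difference of −0.06 (adjusted p = 0.908).

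Of 22 listed signalling genes 21 were tested, and none was called in either direction, without or with the replicate block. Among all genes tested 0.168% were called higher and 0.0758% lower without the block, and 1.00% and 0.615% with it. Their median log2 difference was 0.02, beside −0.03 over all genes tested. Before adjustment, p was under 0.05 for 1 higher and 1 lower gene, and over all genes tested it was so for 6.67% higher and 6.7% lower. *Jak1*, the kinase that binds IL-4Rα, was at 7866, 6842 and 7232 normalized counts in EtOH and 8941, 6097 and 7126 in TAM (adjusted p = 0.999). *Jak3*, the kinase of the common gamma chain, was at 73.24, 439.96 and 96.44 in EtOH and 183.16, 118.96 and 187.29 in TAM (adjusted p = 0.957). *Tyk2*, which binds IL-13Rα1, was lower in all 3 TAM libraries without passing the test (log2 difference −0.27, adjusted p = 0.600).

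*Stat6*, the main transcription factor of IL-4 and IL-13 signalling, had a log2 difference of −0.23 (limma adjusted p = 0.671), and its groups overlapped. *Stat5a* and *Stat5b*, which act after IL-2 and IL-15, had −0.14 (adjusted p = 0.815) and −0.20 (adjusted p = 0.654). *Socs2*, a suppressor of cytokine signalling, was at 625.75, 604.80 and 2108 in EtOH and 37.58, 439.86 and 225.78 in TAM, all 3 lower (log2 difference −2.57, adjusted p = 0.295). *Ptpn1*, a phosphatase that can act on JAK kinases, was at 813.35, 664.86 and 644.80 in EtOH and 1126, 1045 and 1195 in TAM, all 3 higher (log2 difference 0.67, adjusted p = 0.183). *Ptpn11*, another phosphatase, had 0.60 (adjusted p = 0.378). *Cish* and *Socs3*, feedback genes like *Socs2* and named here after their values were seen, overlapped between groups and had 1.37 (adjusted p = 0.464) and 0.67 (adjusted p = 0.638).

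Of 20 listed genes of the response to IL-4 and IL-13, 10 were tested, with a median log2 difference of 1.23. None was called without the block. In that model p before adjustment was under 0.05 for 5 higher and 0 lower genes, beside 6.67% and 6.7% of all genes tested. The list was chosen with earlier results of these data known. *Chi3l1*, among the 5, passed the filter only through its TAM libraries, so the filter itself placed it above EtOH. With the block p before adjustment was under 0.05 for 7 higher genes and 0 lower, beside 8.64% and 8.32% of all genes tested. With the block 3 of the 10 were called, all higher in TAM, beside 1.00% of all genes tested called higher and 0.615% lower. *Ccl11*, which encodes eotaxin, was at 256.22, 443.53 and 83.09 normalized counts in EtOH and 1778, 1806 and 1289 in TAM. Every TAM library exceeded every EtOH library by more than a doubling, with a log2 difference of 2.92 ± 0.56 (SE, limma adjusted p = 0.113, and 0.0419 with the block).

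*Tnc*, the matrix glycoprotein tenascin C, was at 5644, 30603 and 2373 in EtOH and 41697, 142976 and 25789 in TAM. EtOH replicate 2 lay above TAM replicate 3, so the groups overlapped, but each TAM library was higher than the EtOH library with its number (log2 difference 2.85, adjusted p = 0.290, and 0.0285 with the block). *Timp1*, an inhibitor of matrix metalloproteinases, was at 1328, 3801 and 874 in EtOH and 3571, 12745 and 4506 in TAM, with the same kind of overlap (log2 difference 1.85, adjusted p = 0.291, and 0.0384 with the block). With the block and without the replicate 3 pair, *Ccl11* was still called (adjusted p = 0.0304) and *Tnc* (0.0682) and *Timp1* (0.118) were not.

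Others of this list stood apart between groups without being called. *Chi3l1*, a chitinase-like protein, was at 5.95, 15.21 and 8.71 in EtOH and 52.45, 32.66 and 52.96 in TAM (log2 difference 2.16, adjusted p = 0.147, and 0.131 with the block). *Pparg*, a nuclear receptor, was at 72.78, 50.53 and 20.22 in EtOH and 108.36, 75.39 and 86.64 in TAM (log2 difference 1.06, adjusted p = 0.403). *Vcam1* was at 672.44, 601.89 and 716.54 in EtOH and 1055, 1801 and 1131 in TAM (log2 difference 0.96, adjusted p = 0.182). *Postn*, the matrix protein periostin and the most abundant gene of the list, went the other way, at 128066, 119157 and 236751 in EtOH and 121458, 51456 and 132573 in TAM, with overlap (log2 difference −0.71, adjusted p = 0.600). *Igf1* had −0.10 (adjusted p = 0.960). Genes of the list best known from macrophages were low and not tested. *Chi3l3* was at 0 in all 6 libraries and *Retnla* at no more than 0.96. *Arg1* was at 5.32, 2.82 and 6.13 in EtOH and 5.02, 39.37 and 15.44 in TAM, and *Mrc1* at 1.4, 0 and 2.6 in EtOH and 7.65, 13.39 and 2.73 in TAM. *Vcam1*, *Postn*, *Igf1*, *Chi3l3*, *Retnla*, *Arg1* and *Mrc1* were chosen for mention after their values were seen. These genes also respond to other signals in fibroblasts, and the part of IL-4 or IL-13 in their values was not tested.

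All 10 genes listed as regulators of *Il15* and *Il15ra*, among them interferon regulatory factors, NF-κB subunits and C/EBPβ, were tested and none was called without or with the block. Over all genes tested 0.168% were called higher and 0.0758% lower without the block, and 1.00% and 0.615% with it. The median log2 difference of the 10 was 0.13. Of them 0 were at an unadjusted p under 0.05, beside 6.67% higher and 6.7% lower of all genes tested. No result about the regulators is read from these counts. *Rela*, the p65 subunit of NF-κB, was the only gene of this list without overlap, beside 9.19% higher and 11.4% lower of all genes tested. It was at 1147, 1201 and 994 in EtOH and 1352, 1364 and 1269 in TAM (log2 difference 0.26, adjusted p = 0.538). *Irf1*, a known activator of *Il15*, was at 282.14, 745.09 and 457.07 in EtOH and 476.46, 285.69 and 634.75 in TAM (adjusted p = 0.975), and it was chosen for mention after its values were seen.

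Since IL-13Rα2 is a decoy receptor, 10 other genes of decoy, scavenging or soluble cytokine antagonists were listed, of which 7 were tested. The list was chosen with earlier results of these data known, and its *Il1rn* and *Ccrl1* passed the filter only through their 3 TAM libraries. The filter itself thus placed both above EtOH. The median log2 difference of the 7 tested genes was 1.88. Of these 7, 5 were higher in all 3 TAM libraries, beside 9.19% of all genes tested. None was called by limma without the block, and p before adjustment was under 0.05 for 5 higher genes and 0 lower, beside 6.67% and 6.7% of all genes. With the block that p was under 0.05 for 5 higher genes and 1 lower, *Il6st*, beside 8.64% and 8.32%. With the block 1 was called, *Il1rn*, the IL-1 receptor antagonist, beside 1.00% of all genes called higher and 0.615% lower. *Il1rn* entered the test only through the group where it was high, so no support is drawn from this call. It was at 11.41, 6.61 and 3.39 in EtOH and 79.39, 41.88 and 30.55 in TAM, without overlap (log2 difference 2.68, adjusted p = 0.145, and 0.0461 with the block). Without the replicate 1 or the replicate 3 pair it was not called with the block (adjusted p = 0.124 and 0.140).

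*Tnfrsf11b*, which encodes the decoy receptor osteoprotegerin, was at 727.38, 164.96 and 189.40 in EtOH and 1848, 1258 and 1052 in TAM (log2 difference 2.24, adjusted p = 0.183, and just above the threshold of 0.05 with the block). *Ccrl1*, a scavenging chemokine receptor, was at 15.38, 6.61 and 14.03 in EtOH and 107.71, 29.31 and 34.50 in TAM (log2 difference 1.99, adjusted p = 0.247). *Il6st*, whose soluble form buffers IL-6 signalling, differed in direction from these, with a log2 difference of −1.12 (adjusted p = 0.411).

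**Figure D4:**
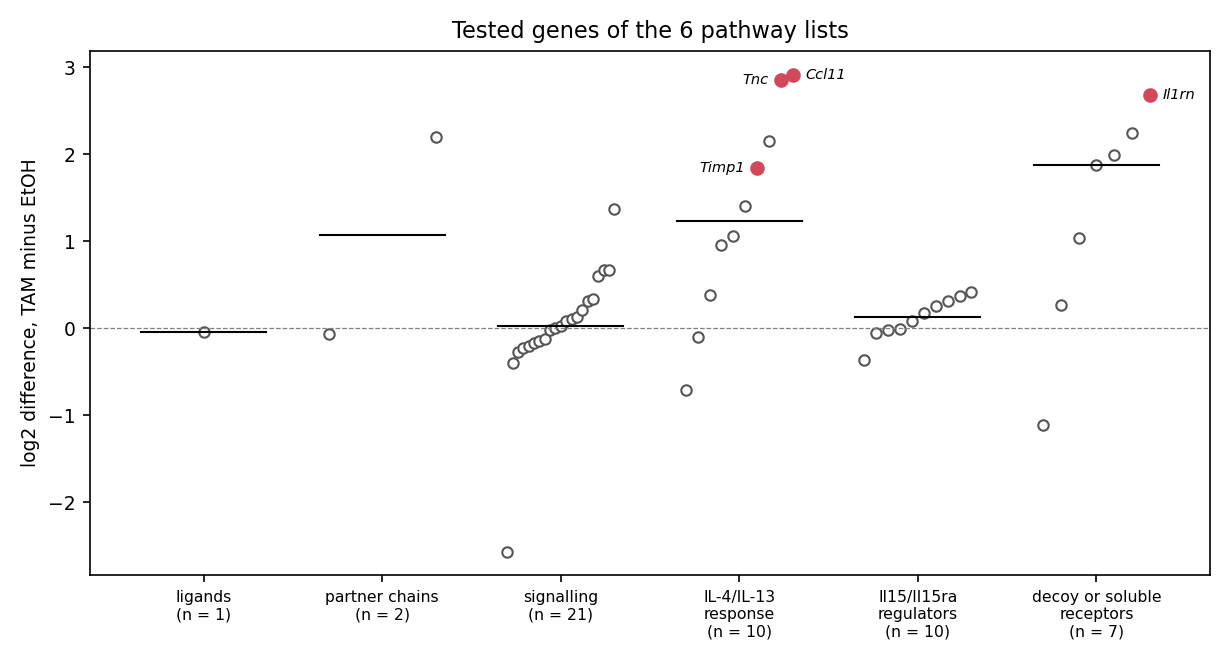
Log2 difference between TAM and EtOH (vertical axis, TAM minus EtOH on the log2(value + 1) scale) of each tested gene in the 6 lists, with bars for list medians. Filled points are the 4 genes called with the replicate block, *Ccl11*, *Tnc*, *Timp1* and *Il1rn*, and no gene of the lists was called without it. Of these, *Il1rn* passed the filter on low values only through its TAM libraries.

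Over all 6 lists 51 of 84 genes were tested and 0 were called by limma without the block, and before adjustment p was under 0.05 for 12 higher genes and 1 lower, beside 6.67% and 6.7% of all genes tested. With the block 4 were called higher and 0 lower, beside 1.00% and 0.615% of all genes tested. Before adjustment, p with the block was under 0.05 for 14 higher genes and 2 lower, beside 8.64% and 8.32%. *Chi3l1*, *Il1rn* and *Ccrl1* passed the filter only through their TAM libraries, so the filter itself placed them above EtOH. Of the 51, 13 were higher in all 3 TAM libraries, 2 were lower and 36 overlapped, beside 9.19% and 11.4% of all genes without overlap in each direction, and the median log2 difference was 0.21, beside −0.03.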

How the data were processed

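Poly(A) RNA of 6 MSF libraries, 3 EtOH and 3 TAM, was sequenced. The authors mapped reads to mm9 with TopHat, counted them per gene with HTSeq and tested them with edgeR, whose versions are not given in the sources used here. The signal deposited by the authors is 1 table of normalized counts. Its scaling is not stated and its values are not whole, so no count test was run and no counting intervals are given, because the read depth is unknown. The table's columns carry the sample titles and all were used.

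The members and lists were chosen with earlier results of these data known, and 1 listed gene is not reported here. Values were tested as log2(value + 1) with limma 3.58.1 (R 4.3.3) and its trend option, in genes reaching 1 c.p.m. (16.2 normalized counts) in 3 or more libraries, with Benjamini-Hochberg adjustment over 11877 genes. The script was tested on simulated data. Neither the labels nor the study's methods say whether same-numbered libraries were made together. Same-numbered libraries deviated together from their group means (r = 0.241, 0.287 and 0.422), so the replicate number was treated as pairing libraries. The pairing was thus read from these same values. Values with the replicate number as a block are given where a call changed. Named genes were all members, list genes called in either model, up to 3 non-overlapping genes with the largest differences per list, set ligands, kinases, STATs and partner chains, and the 3 genes most correlated with each member. Alternatives were other added constants, filters and scalings, the block, leaving out each library and, added after seeing the data, leaving out each pair with the block. Gene positions and exon lengths came from the mm9 annotation, promoters from RefSeq. Figures were drawn with Python 3.11.15 and matplotlib 3.10.9.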

Additional observations from a re-analysis of the deposited data

How the results depend on the processing

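The 29 calls over all genes became 192 with the replicate block, 17 with no filter on low values and 18 with only genes at 10 or more in all 6 libraries. Leaving out 1 library gave 0 to 15 calls, with 0 without EtOH replicate 1, EtOH replicate 3 or TAM replicate 1, 2 without EtOH replicate 2, 5 without TAM replicate 2 and 15 without TAM replicate 3, and between 961 and 1630 genes at an unadjusted p under 0.05. The 0 calls among pathway genes became 4 with the replicate block and stayed at 0 under the other scalings, filters, added constants and omitted libraries. With the block, leaving out the pair of replicate 1, 2 or 3 gave 201, 924 and 104 calls over all genes and 6, 12 and 1 among pathway genes. The causes of these changes were not tested. The log2 difference of *Il13ra2* was 3.71, and 2.44 with 10 added in place of 1, as that constant is larger than its EtOH values. The block and the filters cannot change the members' log2 differences, and the members were not refitted without pairs. Over omitted libraries the differences ran from 3.19 to 4.30 for *Il13ra2*, 1.69 to 2.63 for *Il15ra*, -1.04 to -0.43 for *Il13ra1*, 0.48 to 0.91 for *Il4ra*, 0.36 to 0.94 for *Il2rg* and -0.81 to -0.02 for *Il15*. Scaling to equal library sums moved the median of all genes from -0.03 to 0.08 on the log2 scale. The unknown read depth limits statements on *Il13ra2* in EtOH and on *Il15*.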
